A study of Mus musculus with 6 samples.

Results

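Chaperones are proteins that help other proteins fold, keep them soluble or hand them on for degradation. The genes followed here encode the chaperones of the cytosol and mitochondria: the heat shock families HSP90, HSP70 and HSP110, the J-domain proteins, the small heat shock proteins, the ring-shaped TRiC complex, the mitochondrial chaperonin HSP60 with HSP10, and the heat shock factors that control many of them. They were chosen by gene symbol, from the family names Dnaja, Dnajb, Dnajc, Hspa, Hspb and Cct with a number, and 11 further symbols such as Hsp90aa1, Hspd1 and Hsf1. The chaperones Hspa5, Dnajb9, Dnajb11, Dnajc3 and Dnajc10 of the endoplasmic reticulum (ER) were left out. Because the choice was by symbol, some other ER proteins, such as Dnajc14, stayed in. The rule found 78 genes among 27179 in the count table, and 68 of the 78 passed the filter on low counts, as did 12345 of all genes.

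RNA was sequenced from mouse embryonic stem cells (mESCs) that expressed Tfe3-ERT2, a version of the transcription factor Tfe3 that moves into the nucleus when 4-hydroxytamoxifen is given. There were 3 libraries of cells treated with 4-hydroxytamoxifen at 1 µg/mL for 48 h (4OHT) and 3 of cells given its vehicle ethanol (EtOH), all kept in medium with serum and the cytokine LIF and all carrying Tfe3-ERT2. Cells without the fusion that received 4OHT are not among the libraries analysed here, so an effect of the drug alone cannot be told apart from that of the fusion. The labels name neither the promoter of the fusion nor whether the cells were 1 clone, nor separate cultures, so the p-values measure the spread between these libraries only.

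Library totals were between 4648374 and 6427880 counts in 4OHT and between 4092877 and 4984364 in EtOH, and the first principal component, with 66.0% of the variance, separated the groups. Tfe3 itself was at 832, 836 and 827 CPM (counts scaled to library size with TMM factors) in 4OHT, against 1074, 1035 and 1004 CPM in EtOH, in counts that do not separate the endogenous gene from the fusion. Of 8 pluripotency markers 3 were higher (Esrrb, Zfp42 and Nanog) and 2 lower (Pou5f1 and Lin28a), and Sox2, Sall4 and Dppa5a were not called. Their summed CPM lay between 4543 and 4575 in 4OHT and between 4344 and 4403 in EtOH, and without Esrrb, left out after the values were seen, between 3659 and 3702 in 4OHT and between 3782 and 3849 in EtOH. Summed CPM of 6 feeder fibroblast markers lay between 16.8 and 21.6 in 4OHT and between 13.5 and 21.4 in EtOH. In such bulk RNA, fewer cells of a kind and less RNA per cell cannot be told apart.

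Most of these proteins work as relays. J-domain proteins bring a client to HSP70 and make it hydrolyse ATP, HSP110 and BAG proteins release the nucleotide again, and Stip1 passes clients from HSP70 to HSP90. TRiC encloses actin, tubulin and other proteins in its cavity, and HSP60 with its lid HSP10 does the same in the mitochondrial matrix. Small heat shock proteins hold unfolded clients without ATP. Under heat or proteotoxic stress the factor Hsf1 binds heat shock elements, repeats of the bases GAA in alternating orientation, and raises many of these genes together.

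Genes with such an element near the start site were found among the lower chaperone genes, and they are shown here beside Hspb1, a higher gene with shorter elements. The sequences are those of RefSeq on GRCm38, read on the gene's strand, with the GAA and TTC units of each element in capitals. For Hspe1 and Hspb1 they run from 250 bases before the start site through the first 30 transcribed bases, and for Hsph1 and Dnajb6 they give 30 bases around the element.
Hspe1 (chr1:55087898-55088177, plus strand): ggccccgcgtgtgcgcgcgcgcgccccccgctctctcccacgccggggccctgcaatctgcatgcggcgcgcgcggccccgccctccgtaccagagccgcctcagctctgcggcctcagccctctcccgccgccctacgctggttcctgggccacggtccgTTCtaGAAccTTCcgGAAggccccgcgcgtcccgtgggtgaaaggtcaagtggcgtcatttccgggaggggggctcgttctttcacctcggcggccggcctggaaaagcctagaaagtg
Hsph1 (chr5:149636279-149636308, minus strand): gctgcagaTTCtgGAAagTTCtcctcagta
Dnajb6 (chr5:29735844-29735873, plus strand): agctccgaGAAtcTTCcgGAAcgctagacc
Hspb1 (chr5:135887669-135887948, plus strand): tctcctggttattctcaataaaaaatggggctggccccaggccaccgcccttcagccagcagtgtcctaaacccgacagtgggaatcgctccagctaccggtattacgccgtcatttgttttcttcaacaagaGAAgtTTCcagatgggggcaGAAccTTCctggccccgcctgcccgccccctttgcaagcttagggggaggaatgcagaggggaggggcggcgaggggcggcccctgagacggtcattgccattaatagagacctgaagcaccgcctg
In the Hspe1 sequence 4 units follow each other at the regular spacing, and the first begins 89 bases before the start site. Hspd1 has an annotated start site on the other strand of the same stretch, and that window holds the same units, beginning 144 bases before this start. A window at another annotated start site of Hspd1 does not hold them. In Hsph1 an element of 3 units begins 15 bases after 1 of its annotated start sites, and in Dnajb6 one begins 46 bases before 1 of them. Hspb1 has separate pairs of units that begin 117 and 97 bases before its start.

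The search covered the 63 of 78 genes with a RefSeq promoter entry, in windows of 300 bases (250 before and 50 from the start on), on both strands. An element of 3 units, GAANNTTCNNGAA or TTCNNGAANNTTC, was in at least 1 window of 4 of the 63 (6.35%), against 0.540% of 9635 tested genes and 0.662% of 27025 genes with an entry. The 4 were Hspd1, Hspe1, Hsph1 and Dnajb6, all lower in 4OHT, and the first pair share 1 stretch of DNA. The shorter form with 2 units, GAANNTTC or TTCNNGAA, which each 3-unit element also contains, was in 18 of 63 (28.6%), against 13.4% of tested genes. It was in 9 of the 18 lower and in 2 of the 7 higher genes with an entry. The E-box CACGTG, the core of the sites that MiT/TFE factors bind, was in 6 of 63 (9.52%), against 12.2% of tested genes. It was in 3 of the 18 lower genes with an entry (16.7%), Hspd1 and Hsph1 among them, and in 0 of the 7 higher ones. The extended form TCACGTGA was in 0 of 63, against 2.29%. These are matches of letters, with no measurement of binding behind them.

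Of the 68 tested chaperone genes, 22 were lower and 9 higher in 4OHT than in EtOH at an adjusted p under 0.05 (edgeR's quasi-likelihood test over all genes, Benjamini-Hochberg adjustment), and 37 were not called. Over all 12345 tested genes 20.6% were lower, 21.4% higher and 42.0% called in either direction, so the share called among the chaperones, 45.6%, was near the background, while the shares by direction were 32.4% lower and 13.2% higher. The median log2 fold change was −0.06 for the chaperones and 0.00 for all genes. Called chaperone genes moved by 0.30 on the log2 scale in the median, regardless of direction, and called genes of the whole table by 0.38.

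Most of the lower genes were highly expressed ones. Among the 19 chaperone genes whose log2 CPM averaged 8 or more, a level chosen after the values were seen, 16 were lower and 1, Hsp90aa1, was higher. Of the 750 genes of the whole table at that level 46.9% were lower and 25.3% higher. Among the 49 chaperone genes below that level 6 were lower (12.2%) and 8 higher (16.3%), against 20.6% and 21.4% of all tested genes of any level. The values of the 3 libraries of each group did not overlap in 37 of the 68 genes, 25 lower and 12 higher, against 48.8% of all tested genes, 23.7% lower and 25.1% higher. Of all counts of a library, the 78 genes together took 2.28, 2.27 and 2.32% in 4OHT, against 2.54, 2.53 and 2.56% in EtOH.

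**Figure D1:**
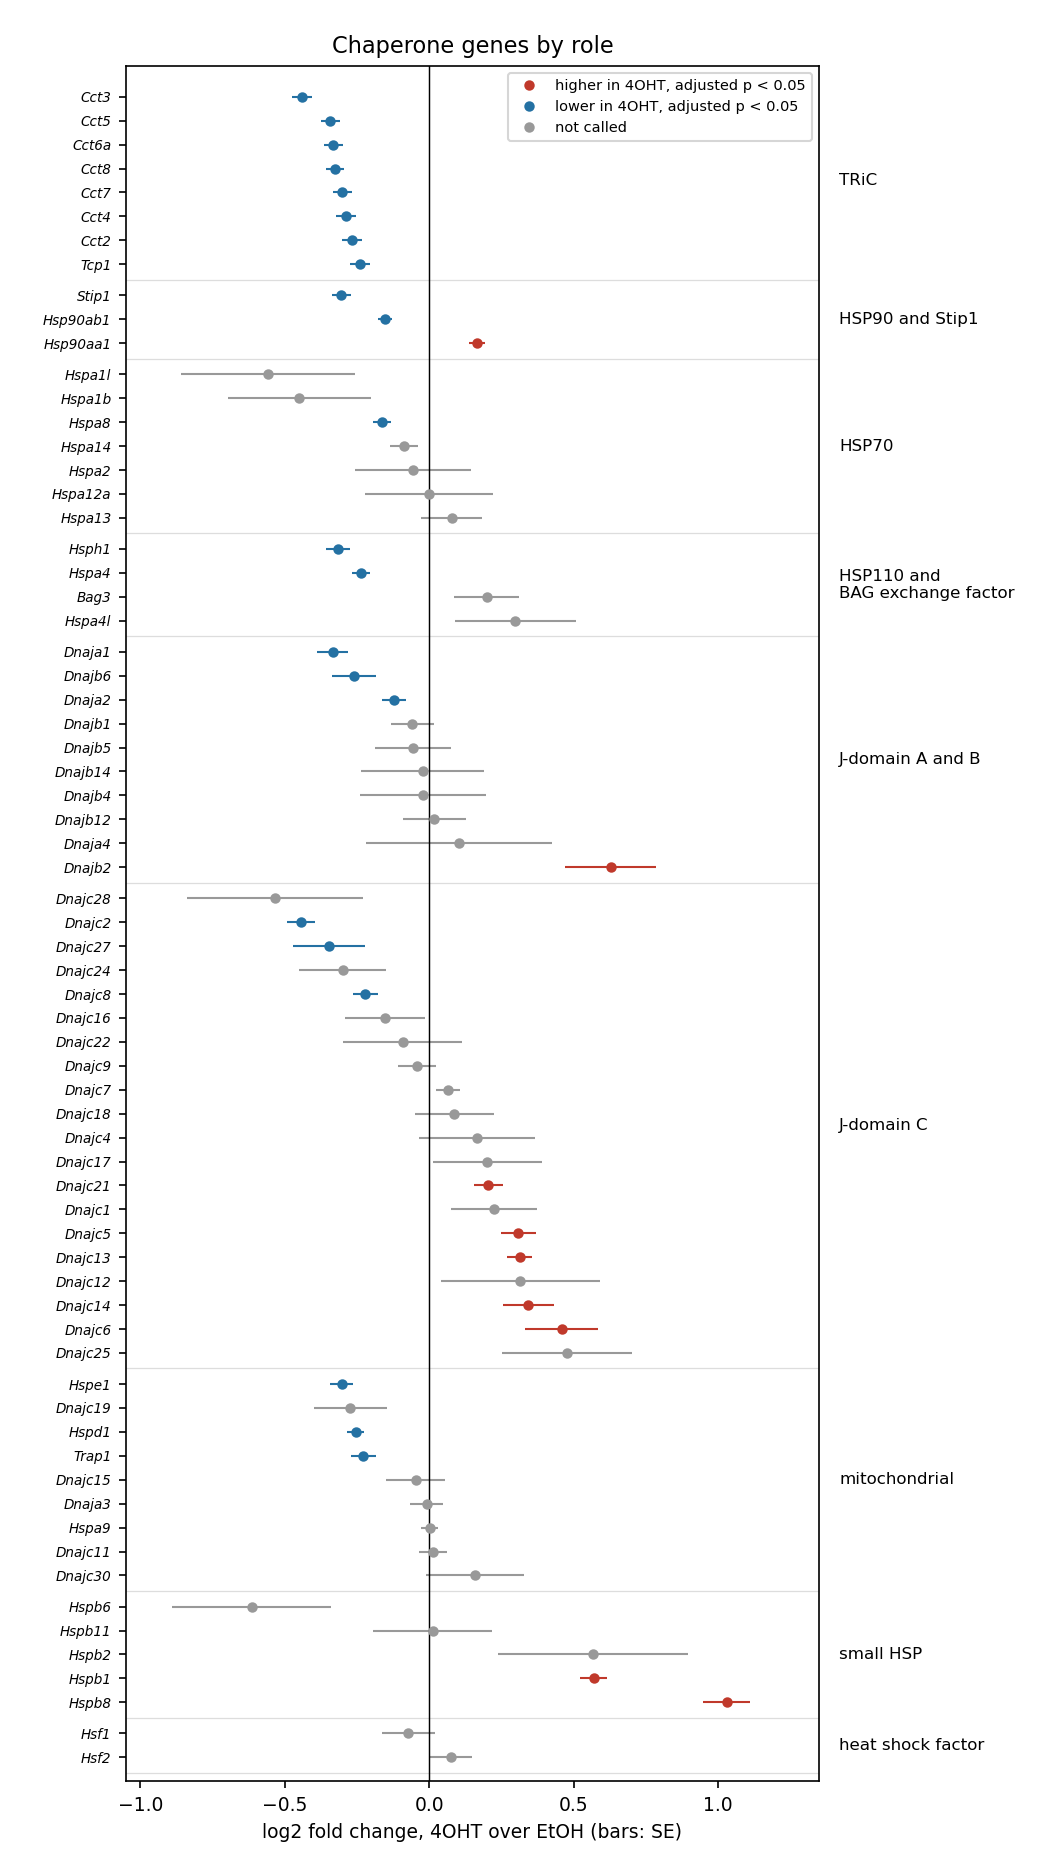
Log2 fold change of each of the 68 tested chaperone genes, 4OHT over EtOH, grouped by role, with bars of 1 SE. All 8 tested TRiC genes lie left of zero, between −0.44 and −0.24, while Hspb8 at 1.03 lies furthest right.

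**Figure D2:**
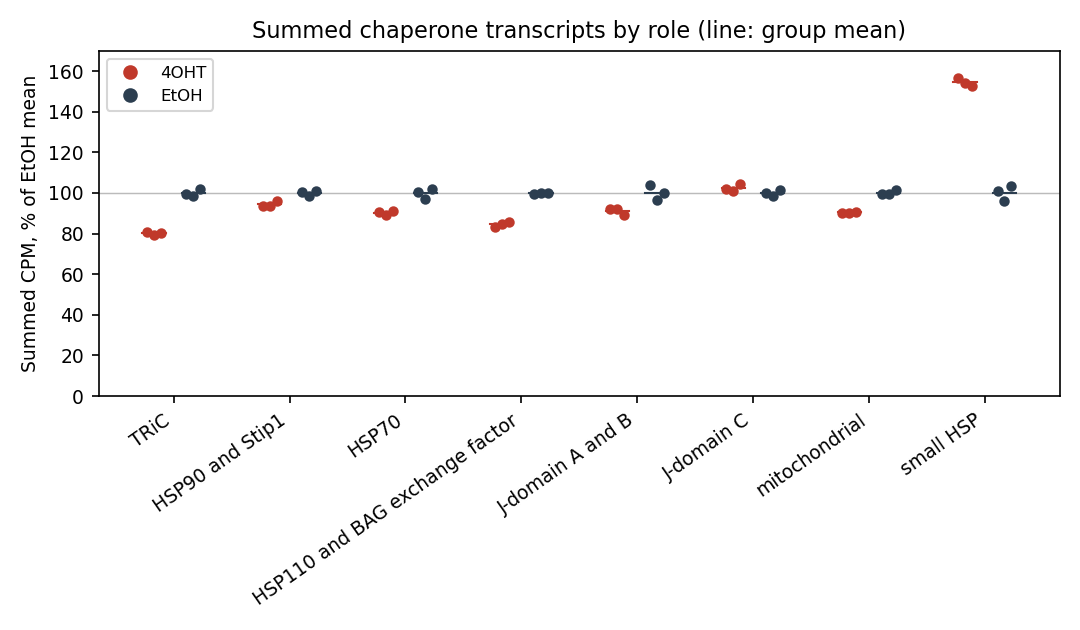
Summed CPM of the genes of each role in each library, as a percentage of the EtOH mean, with lines at the group means. The 4OHT libraries average 80.1% of EtOH for TRiC and 154% for the small heat shock proteins.

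All tested genes of the chaperonin TRiC were lower. TRiC is built from 8 different subunits, encoded by Tcp1 and by Cct2, Cct3, Cct4, Cct5, Cct6a, Cct7 and Cct8, and it is needed to fold actin and tubulin. The 8 genes were lower in 4OHT, against 20.6% of all tested genes. All 8 are highly expressed, and 46.9% of genes whose log2 CPM averaged 8 or more were lower. The groups overlapped in none of the 8, while 23.7% of all tested genes were lower without overlap. Cct3 (gamma subunit; chromosome 3, 88297135 to 88321766) was at 621, 624 and 626 CPM in 4OHT, against 833, 838 and 869 CPM in EtOH. This was the largest fall of the complex, 1.36-fold lower (log2 fold change −0.44, SE 0.03, adjusted p = 5.3e-29 by edgeR). Cct5 (epsilon subunit) was at 739, 728 and 741 CPM in 4OHT, against 918, 929 and 954 CPM in EtOH, or 1.27-fold lower (log2 fold change −0.34, SE 0.03, adjusted p = 2.3e-20 by edgeR). The smallest fall was that of Tcp1, the alpha subunit, at 613, 595 and 622 CPM in 4OHT, against 712, 712 and 737 CPM in EtOH, or 1.18-fold lower (log2 fold change −0.24, SE 0.03, adjusted p = 2.3e-10 by edgeR).

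The remaining subunits lay between these. Cct6a averaged 561 ± 11.0 CPM in 4OHT, against 705 ± 22.9 CPM in EtOH (SD, n = 3 each), 1.26-fold lower (edgeR adjusted p = 1.8e-17). Cct8 averaged 783 ± 8.54 CPM in 4OHT, against 983 ± 25.3 CPM in EtOH (SD, n = 3 each), 1.25-fold lower (edgeR adjusted p = 3.8e-19). Cct7 was 1.23-fold lower, Cct4 1.22-fold lower and Cct2 1.20-fold lower, with edgeR adjusted p-values of 2.0e-15, 1.0e-14 and 7.4e-12. Every 4OHT library was thus below every EtOH library for every subunit. Cct6b, a paralogue of Cct6a known from testis, had 3, 2 and 4 counts in 4OHT, against 4, 4 and 2 in EtOH and was not tested. Without knowledge of the strand setting of the counting, Tcp1 and Cct6a are less certain, since 16.9% and 15.3% of their exon bases overlap other gene models, mainly Acat3 and Mrpl18 for Tcp1 and Psph for Cct6a, on the opposite strand.

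**Figure D3:**
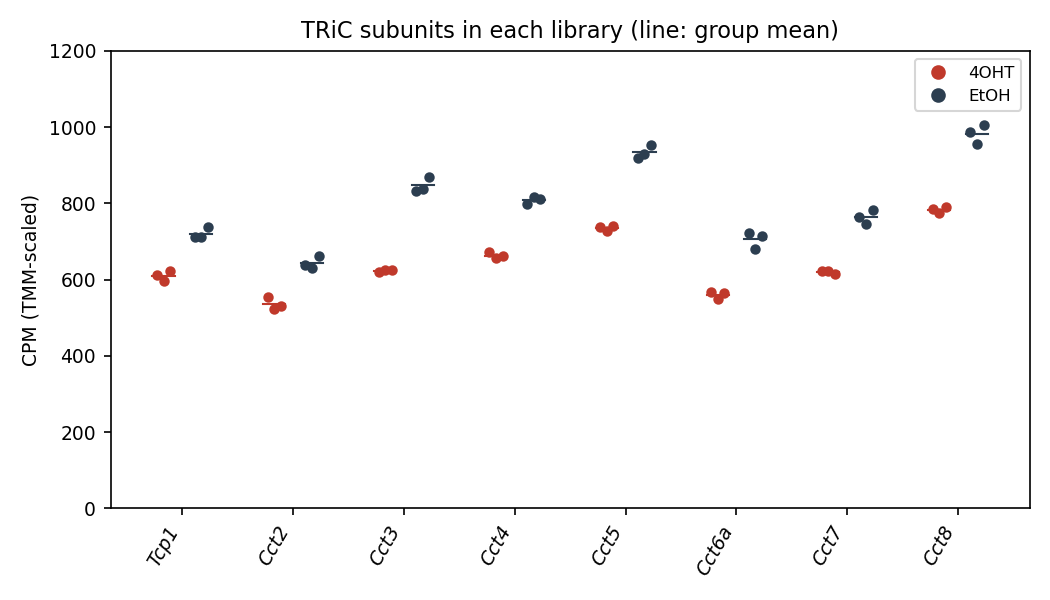
CPM of the 8 tested TRiC subunit genes in each library, with lines at the group means. For every subunit the 3 4OHT libraries lie below the 3 EtOH libraries.

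Because the complex holds its subunits in equal numbers, levels were also compared per length of transcript. The 8 genes spanned between 252 and 416 CPM per kb in 4OHT and between 305 and 528 in EtOH. Cct5 was the highest of them in both groups. Of the summed CPM per kb of the complex, Cct3 took 12.7, 13.0 and 12.9% in 4OHT, against 13.8, 14.0 and 14.1% in EtOH. With 3 libraries a group an exact two-sided permutation test cannot go below 0.10. Cct3, Cct5, Cct2 and Tcp1 reached that value (0.20 after adjustment over the 8 shares).

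Partners of TRiC outside the rule were mixed. Prefoldin, which delivers unfolded actin and tubulin to TRiC, had 4 lower (66.7%) and 1 higher (16.7%) of 6 tested subunit genes. Over all tested genes 20.6% were lower and 21.4% higher. Pfdn2 was at 126, 116 and 115 CPM in 4OHT, against 152, 143 and 140.5 CPM in EtOH (log2 fold change −0.29, SE 0.05, adjusted p = 7.2e-07 by edgeR), and Pfdn6, Pfdn4 and Vbp1 were lower by 0.30, 0.29 and 0.21 on the log2 scale. Pfdn1 was 1.16-fold higher (edgeR adjusted p = 4.7e-04). Of 9 tested cofactors of TRiC and of tubulin folding, 2 were higher (Pdcl3 and Tbcd), 1 was lower (Tbca) and 6 were not called. These shares, 22.2% higher and 11.1% lower, compare with the same 21.4% and 20.6% over all tested genes.

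The pair of cytosolic HSP90 genes moved in opposite directions. HSP90 completes the folding of kinases, steroid receptors and other signalling proteins, and mammals have a constitutive form, Hsp90ab1, and a more stress-inducible one, Hsp90aa1. Hsp90ab1 (chromosome 17) had the highest level of all chaperone genes per length, at 2578 CPM per kb in 4OHT, against 2869 in EtOH. It was at 6463, 6398 and 6528 CPM in 4OHT, against 7246, 7093 and 7236 CPM in EtOH, or 1.11-fold lower (log2 fold change −0.15, SE 0.02, adjusted p = 5.1e-09 by edgeR). Hsp90aa1 (chromosome 12) was at 2714, 2715 and 2899 CPM in 4OHT, against 2484, 2426 and 2515 CPM in EtOH, or 1.12-fold higher (log2 fold change 0.17, SE 0.03, adjusted p = 4.7e-08 by edgeR). In each gene the groups did not overlap, and Hsp90aa1 was highest in 4OHT replicate 3.

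The ratio of Hsp90aa1 to Hsp90ab1 counts, which does not depend on scaling, was 0.420, 0.424 and 0.444 in 4OHT, against 0.343, 0.342 and 0.348 in EtOH. The groups of ratios did not overlap (exact two-sided permutation p = 0.10, the smallest possible, and 0.17 adjusted over 5 ratios). For Hsp90aa1, 47.5% of its 50-base stretches also occur in transcripts of other gene models, above all an annotated pseudogene, so its reads may be shared. The same holds for 3.44% of Hsp90ab1. Stip1, which bridges HSP70 and HSP90, was at 672, 699.6 and 686 CPM in 4OHT, against 844, 854 and 844 CPM in EtOH, or 1.24-fold lower (log2 fold change −0.30, SE 0.03, adjusted p = 2.3e-16 by edgeR).

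Among 26 tested co-chaperones of HSP70 and HSP90 outside the rule, 8 were lower (30.8%) and 7 higher (26.9%). The shares over all tested genes were 20.6% lower and 21.4% higher. The immunophilin gene Fkbp4 was at 673, 682 and 676 CPM in 4OHT, against 861, 855 and 856 CPM in EtOH (log2 fold change −0.34, SE 0.03, adjusted p = 9.7e-20 by edgeR), and the ATPase activator gene Ahsa1 at 255, 252 and 239 CPM in 4OHT, against 317, 319 and 329 CPM in EtOH (log2 fold change −0.37, SE 0.04, adjusted p = 1.4e-15 by edgeR). Tomm34, Nudc, Ppid, Bag4, Ptges3 (p23) and Bag1 were also lower. The higher ones were led by Fnip2, Fnip1 and Tsc1, which bind HSP90 and are better known from the control of the growth kinase mTORC1, and Fnip2 had a log2 fold change of 0.80. Sgta, Unc45a, St13 and Bag6 were higher too, and Cdc37, the HSP90 partner for kinases, was not called (log2 fold change −0.06, SE 0.04, adjusted p = 0.28 by edgeR).

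Of 7 tested HSP70 genes 1 was called (14.3%, against 42.0% of all tested genes), the constitutive cytosolic Hspa8 (chromosome 9, 40801276 to 40805202), which also strips clathrin from vesicles. It was at 1044, 1020.0 and 1066 CPM in 4OHT, against 1184, 1119 and 1202 CPM in EtOH, or 1.12-fold lower (log2 fold change −0.16, SE 0.03, adjusted p = 2.1e-06 by edgeR), with no overlap between groups. Transcripts of other gene models share 39.4% of its 50-base stretches. The stress-inducible HSP70 genes Hspa1a and Hspa1b, near neighbours on chromosome 17, were low in both groups. Hspa1a had 7, 9 and 8 counts in 4OHT, against 13, 6 and 5 in EtOH, too few to be tested, and Hspa1b had 25, 27 and 27 counts in 4OHT, against 29, 39 and 20 in EtOH (log2 fold change −0.45, 95% interval −0.94 to 0.04, edgeR adjusted p = 0.14). These paralogues share 66.3% and 62.3% of their 50-base stretches with other genes, mainly with each other, so their counts are uncertain. Hspa1l, in the same cluster, was at 2.60, 3.07 and 3.44 CPM in 4OHT, against 4.03, 4.30 and 5.41 CPM in EtOH, without overlap but not called (edgeR adjusted p = 0.13), and was named, like most uncalled genes here, after its values were seen. An opposite-strand gene model covers 71.9% of its exon bases.

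Hspa2, best known from the male germ line, was at 9.77, 5.95 and 9.06 CPM in 4OHT, against 9.26, 8.14 and 8.12 CPM in EtOH (log2 fold change −0.06, SE 0.20, adjusted p = 0.85 by edgeR), and its groups overlapped. Hspa14 forms the ribosome-associated complex with the J-domain protein Dnajc2, a complex that acts on nascent chains. Hspa14 was at 163, 173 and 158 CPM in 4OHT, against 167, 181 and 177 CPM in EtOH and was not called (log2 fold change −0.09, SE 0.05, adjusted p = 0.14 by edgeR), while Dnajc2 fell, as given below. The remaining tested members of the family, Hspa12a and Hspa13, were not called, and Hspa12b was too low to be tested.

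Of 4 tested exchange factors that reset HSP70, 2 were lower, against 20.6% of all tested genes. Both had an average log2 CPM of at least 8, a level at which 46.9% of tested genes were lower. Hspa4, an HSP110 protein, was at 865, 869 and 896 CPM in 4OHT, against 1007, 1046 and 1049 CPM in EtOH, or 1.18-fold lower (log2 fold change −0.24, SE 0.03, adjusted p = 1.5e-11 by edgeR). Hsph1, the inducible HSP110 whose element is shown above, was at 242, 266 and 250.2 CPM in 4OHT, against 335, 307 and 302 CPM in EtOH, or 1.24-fold lower (log2 fold change −0.31, SE 0.04, adjusted p = 1.7e-11 by edgeR). In both genes every 4OHT library was below every EtOH library. The ratio of Hsph1 to Hspa8 counts was 0.232, 0.261 and 0.235 in 4OHT, against 0.283, 0.274 and 0.251 in EtOH, with overlapping groups (exact two-sided permutation p = 0.20, or 0.25 adjusted over 5 ratios). Hspa4l was low, at 7.81, 7.57 and 10.3 CPM in 4OHT, against 8.26, 7.69 and 4.92 CPM in EtOH, and was not called (log2 fold change 0.30, SE 0.21, adjusted p = 0.26 by edgeR). Bag3, which couples HSP70 to small heat shock proteins in selective autophagy, was at 35.4, 28.1 and 28.1 CPM in 4OHT, against 26.4, 24.0 and 28.8 CPM in EtOH, with overlapping groups (log2 fold change 0.20, SE 0.11, adjusted p = 0.15 by edgeR).

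**Figure D4:**
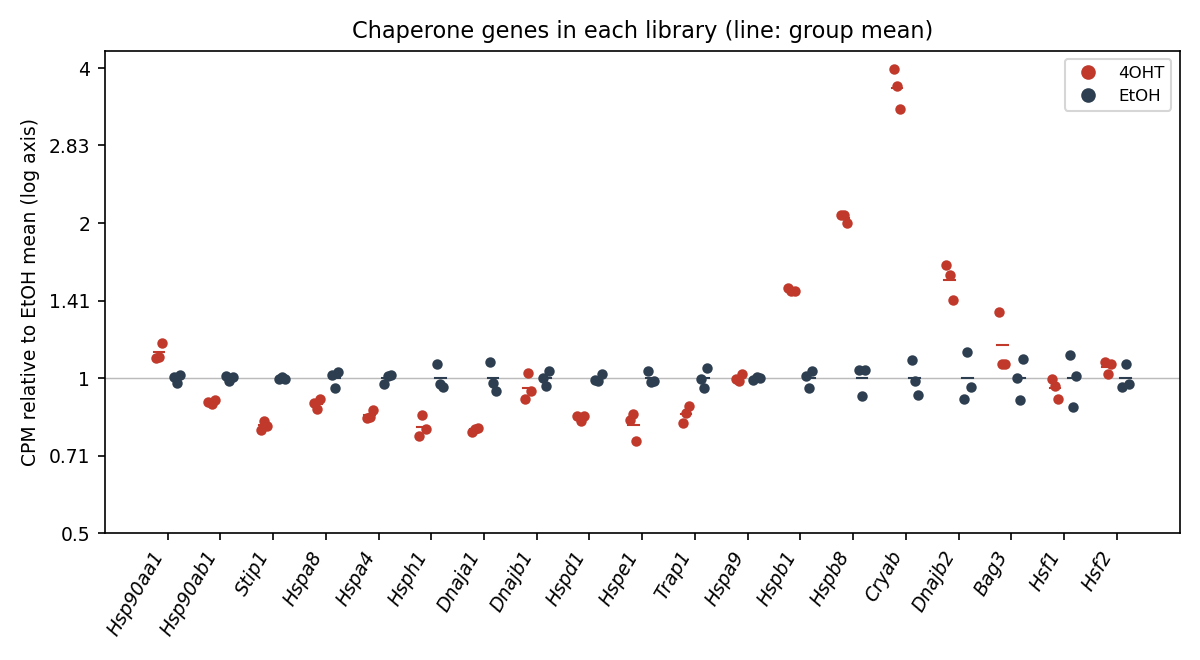
CPM of named chaperone genes, and of Cryab, in each library relative to the EtOH mean of the gene, on a log axis, with lines at the group means. Hsp90aa1 lies above 1 and Hsp90ab1 below it in all 4OHT libraries, Hspd1, Hspe1 and Trap1 lie below, Hspa9 lies at 1, and Hspb1, Hspb8, Cryab and Dnajb2 lie above.

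J-domain proteins of classes A and B, the general partners of HSP70, had 3 lower and 1 higher of 10 tested genes outside mitochondria, or 40.0% called, near the 42.0% called over all genes (20.6% lower and 21.4% higher). Dnaja1, a farnesylated partner of Hspa8, was at 112, 114 and 114 CPM in 4OHT, against 153, 139 and 135 CPM in EtOH, or 1.26-fold lower (log2 fold change −0.33, SE 0.05, adjusted p = 2.8e-08 by edgeR). Dnajb6, which suppresses aggregation, was at 55.1, 55.4 and 54.7 CPM in 4OHT, against 63.6, 62.8 and 71.8 CPM in EtOH (log2 fold change −0.26, SE 0.08, adjusted p = 0.0031 by edgeR), and its call was lost without EtOH replicate 3 (edgeR adjusted p = 0.056). Other gene models share 20.6% of the 50-base stretches of Dnaja1 and 21.0% of those of Dnajb6. Dnaja2 was at 299, 286 and 282 CPM in 4OHT, against 335, 299 and 309 CPM in EtOH, with overlapping groups (log2 fold change −0.12, SE 0.04, adjusted p = 0.010 by edgeR). That call was lost without 4OHT replicate 3, without EtOH replicate 1 and with DESeq2 (adjusted p of 0.067, 0.25 and 0.072). Dnajb1, the classical heat-inducible partner of HSP70, was at 59.5, 66.7 and 61.5 CPM in 4OHT, against 65.5, 63.1 and 67.4 CPM in EtOH, with overlap (log2 fold change −0.06, SE 0.08, adjusted p = 0.57 by edgeR, 95% interval −0.21 to 0.09).

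The higher gene of these classes was Dnajb2, which binds ubiquitin and sorts clients to the proteasome. It was at 18.7, 17.9 and 15.9 CPM in 4OHT, against 10.3, 12.7 and 10.8 CPM in EtOH, or 1.55-fold higher (log2 fold change 0.63, SE 0.16, adjusted p = 4.0e-04 by edgeR), with no overlap. The other 6 tested genes of the classes, Dnajb1 included, had log2 fold changes between −0.06 and 0.10. Dnajb3, Dnajb7 and Dnajb13 were too low to be tested, with at most 19 counts in a library, and Dnajb8 had none.

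Class C holds J-domain proteins with specialised tasks. Of 20 tested genes of the class not placed in the mitochondrial group below, 5 were higher and 3 lower. Over all genes 21.4% were higher and 20.6% lower. Dnajc13, a protein of endosomes, was at 269, 274 and 292 CPM in 4OHT, against 220.1, 231 and 221 CPM in EtOH, or 1.24-fold higher (log2 fold change 0.31, SE 0.04, adjusted p = 4.6e-11 by edgeR). Dnajc5, the cysteine string protein of secretory vesicles, was at 118, 122 and 118 CPM in 4OHT, against 94.7, 87.9 and 107 CPM in EtOH, or 1.24-fold higher (log2 fold change 0.31, SE 0.06, adjusted p = 3.2e-06 by edgeR). Dnajc6, the auxilin that recruits Hspa8 to clathrin coats, was at 26.9, 22.4 and 28.4 CPM in 4OHT, against 20.9, 17.6 and 17.7 CPM in EtOH, or 1.38-fold higher (log2 fold change 0.46, SE 0.13, adjusted p = 0.0013 by edgeR). In each of these every 4OHT library was above every EtOH library.

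The other higher members were Dnajc14, a membrane protein of the ER (1.27-fold, log2 fold change 0.34, SE 0.09, adjusted p = 5.1e-04 by edgeR), and Dnajc21, which acts in ribosome maturation (1.15-fold, log2 fold change 0.20, SE 0.05, adjusted p = 2.8e-04 by edgeR). Of the exon bases of Dnajc14, 19.9% overlap other gene models. Dnajc25 was at 8.03, 8.30 and 7.34 CPM in 4OHT, against 6.65, 4.30 and 5.90 CPM in EtOH, without overlap but not called (edgeR adjusted p = 0.078).

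The lower members of class C were Dnajc2, Dnajc27 and Dnajc8. Dnajc2 had the largest called fall among all chaperone genes, at 145, 149 and 153 CPM in 4OHT, against 199, 201 and 210.4 CPM in EtOH, or 1.36-fold lower (log2 fold change −0.44, SE 0.05, adjusted p = 2.6e-16 by edgeR). Dnajc8, which is found with splicing factors, was at 205, 209 and 208 CPM in 4OHT, against 243, 242 and 241 CPM in EtOH, or 1.17-fold lower (log2 fold change −0.22, SE 0.04, adjusted p = 6.2e-06 by edgeR). Dnajc27, a small GTPase with a J domain, was at 20.4, 18.8 and 20.3 CPM in 4OHT, against 25.2, 23.5 and 27.1 CPM in EtOH (log2 fold change −0.35, SE 0.12, adjusted p = 0.017 by edgeR). Its call was lost without 4OHT replicate 2, without EtOH replicate 3 and with DESeq2 (adjusted p of 0.059, 0.081 and 0.12). Dnajc9, a histone chaperone, was not called (log2 fold change −0.04, SE 0.07, adjusted p = 0.65 by edgeR). It and the other uncalled members of class C had log2 fold changes between −0.53 and 0.48.

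In mitochondria the chaperonin genes fell, while the matrix HSP70 gene had nearly equal levels in both groups. Of the 9 tested genes placed in this group 3 were lower (33.3%, against 20.6% of all tested genes). Hspd1, Hspe1 and Hspa9 had an average log2 CPM of at least 8, a level at which 46.9% of tested genes were lower. Hspd1, which encodes HSP60 (chromosome 1, 55077833 to 55088243), was at 1094, 1069 and 1095 CPM in 4OHT, against 1288, 1279 and 1322 CPM in EtOH, or 1.19-fold lower (log2 fold change −0.26, SE 0.03, adjusted p = 5.2e-14 by edgeR). Hspe1, which encodes its lid HSP10 (chromosome 1, 55088148 to 55091317), was at 276, 282 and 251 CPM in 4OHT, against 343, 326 and 328 CPM in EtOH, or 1.23-fold lower (log2 fold change −0.30, SE 0.04, adjusted p = 3.9e-11 by edgeR). These genes start close together on opposite strands, with 1 annotated start of Hspd1 inside the Hspe1 sequence printed above. In both the groups did not overlap. Their ratio of counts, Hspd1 over Hspe1, was 3.96, 3.79 and 4.37 in 4OHT, against 3.76, 3.93 and 4.03 in EtOH (exact two-sided permutation p = 0.60, also after adjustment over 5 ratios). Of their 50-base stretches, 39.7% for Hspd1 and 18.4% for Hspe1 occur in other gene models, pseudogenes among them.

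Trap1, the mitochondrial HSP90, was at 226, 236 and 243 CPM in 4OHT, against 275, 264 and 289 CPM in EtOH, or 1.17-fold lower (log2 fold change −0.23, SE 0.04, adjusted p = 1.4e-06 by edgeR). Hspa9, the HSP70 of the matrix that pulls proteins through the import channel, was at 1042, 1034 and 1065 CPM in 4OHT, against 1037, 1054 and 1048 CPM in EtOH. Its log2 fold change was 0.00 (95% interval −0.06 to 0.06, edgeR adjusted p = 0.98), an interval that does not reach the fall of Hspd1. The ratio of Hspa9 to Hspd1 counts was 0.952, 0.967 and 0.972 in 4OHT, against 0.805, 0.824 and 0.793 in EtOH (exact two-sided permutation p = 0.10, the smallest possible, 0.17 adjusted over 5 ratios). Dnaja3, the J-domain partner of Hspa9, was at 109.6, 123 and 120.1 CPM in 4OHT, against 119, 115 and 123 CPM in EtOH (log2 fold change −0.01, SE 0.06, adjusted p = 0.92 by edgeR).

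Dnajc19, a J-domain protein of the import motor, was at 19.1, 20.7 and 19.2 CPM in 4OHT, against 22.2, 24.9 and 24.6 CPM in EtOH, without overlap but not called (log2 fold change −0.27, SE 0.13, adjusted p = 0.072 by edgeR). The remaining genes placed in the mitochondrial group, Dnajc11, Dnajc15 and Dnajc30, were not called. Outside the rule, 16 mitochondrial proteases and parts of the import machinery held 3 lower genes (18.8%) and 1 higher (6.25%). Over all tested genes 20.6% were lower and 21.4% higher. The lower ones were the import genes Tomm70a (329.9, 329 and 362 CPM in 4OHT, against 422, 408 and 423 CPM in EtOH; log2 fold change −0.29, SE 0.04, adjusted p = 1.5e-11 by edgeR) and Timm44, and the protease gene Afg3l2, and the higher one was Spg7, the partner of Afg3l2. The matrix proteases Lonp1 and Clpp and the HSP70 exchange factors Grpel1 and Grpel2 were not called.

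Among the called chaperone genes, the small heat shock protein gene Hspb8 had the largest rise. Hspb8 (chromosome 5, 116408491 to 116422864), which works with Bag3 in the clearance of misfolded proteins, was at 77.3, 77.0 and 74.4 CPM in 4OHT, against 38.7, 34.4 and 38.6 CPM in EtOH, or 2.04-fold higher (log2 fold change 1.03, SE 0.08, adjusted p = 7.6e-27 by edgeR). Hspb1 (chromosome 5, 135887919 to 135889563), which also binds actin and intermediate filaments, was at 234, 230.5 and 229.9 CPM in 4OHT, against 157, 149 and 161 CPM in EtOH, or 1.48-fold higher (log2 fold change 0.57, SE 0.05, adjusted p = 2.1e-25 by edgeR). The libraries of a group lay close together and the groups far apart. Of the 50-base stretches of Hspb1, 50.1% also occur in other gene models, above all an annotated pseudogene. The ratio of Hspb8 to Bag3 counts was 2.18, 2.74 and 2.64 in 4OHT, against 1.47, 1.43 and 1.34 in EtOH (exact two-sided permutation p = 0.10, the smallest possible, 0.17 adjusted over 5 ratios).

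Of the 8 genes grouped here by an Hspb symbol 5 were tested and 2 were higher (40.0%, against 21.4% of all tested genes). Hspb6 had a log2 fold change below 0. Hspb2 was at 3.91, 3.97 and 3.75 CPM in 4OHT, against 2.82, 1.81 and 3.20 CPM in EtOH, without overlap but not called (log2 fold change 0.57, SE 0.33, adjusted p = 0.16 by edgeR), and 30.2% of its exon bases overlap the neighbouring Cryab on the opposite strand. Hspb6 was at 4.12, 3.07 and 3.75 CPM in 4OHT, against 6.24, 5.43 and 4.92 CPM in EtOH, also without overlap and not called (log2 fold change −0.62, SE 0.28, adjusted p = 0.061 by edgeR). Hspb11 was not called, and Hspb3, Hspb7 and Hspb9 had at most 2 counts in a library. Cryab, alpha-B crystallin, is a small heat shock protein whose symbol lies outside the rule. It was at 46.4, 43.1 and 38.9 CPM in 4OHT, against 12.7, 11.5 and 10.8 CPM in EtOH, or 3.62-fold higher (log2 fold change 1.85, SE 0.12, adjusted p = 2.2e-34 by edgeR).

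Of 6 markers of trophectoderm, an epithelium, 4 were tested (Krt8, Krt18, Eomes and Gata3) and all 4 were higher, as were Hspb1, Hspb8 and Cryab, and the summed CPM of the 6 was between 872 and 891 in 4OHT and between 377 and 403 in EtOH, mostly from the keratin genes Krt8 and Krt18. Krt8 averaged 489 ± 2.86 CPM in 4OHT, against 219 ± 8.23 CPM in EtOH (SD, n = 3 each). The defining markers Cdx2 and Elf5 were too low to be tested. Cdx2 had 6, 8 and 12 counts in 4OHT, against 14, 12 and 5 in EtOH, and Elf5 had 0, 1 and 0 counts in 4OHT, against 0, 0 and 0 in EtOH. The part of the trophectoderm markers in the rises of Hspb1, Hspb8 and Cryab was not tested. Of 6 primitive endoderm markers 3 were tested (Gata4, Sox7 and Dab2) and did not pass the test (edgeR adjusted p of 0.70, 0.081 and 0.25). The groups overlapped in Gata4 and Dab2 but not in Sox7 (log2 fold change 0.71, SE 0.34). Summed CPM of the 6 primitive endoderm markers was at least 23.2 in 4OHT and at most 22.8 in EtOH, so the groups of sums did not overlap.

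The heat shock factors themselves did not pass the test. Hsf1 was at 42.5, 41.1 and 38.9 CPM in 4OHT, against 47.3, 37.5 and 43.1 CPM in EtOH (log2 fold change −0.07, SE 0.09, adjusted p = 0.57 by edgeR, 95% interval −0.25 to 0.11). Hsf2 was at 66.4, 62.9 and 66.1 CPM in 4OHT, against 59.4, 66.0 and 60.3 CPM in EtOH (log2 fold change 0.07, SE 0.08, adjusted p = 0.46 by edgeR, 95% interval −0.07 to 0.22). The groups overlapped in both, and these are levels of transcripts, not of factor activity. Hsbp1, a small protein known to bind Hsf1, was at 86.8, 82.8 and 91.2 CPM in 4OHT, against 75.1, 66.9 and 66.4 CPM in EtOH, or 1.25-fold higher (log2 fold change 0.32, SE 0.07, adjusted p = 3.0e-05 by edgeR). Hsf4 and Hsf5 were too low to be tested, and Hsf3 and Hsfy2 had no counts.

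The ER chaperones that the rule leaves out, with 5 related genes, had 1 higher and 1 lower of 10 tested. Over all tested genes 21.4% were higher and 20.6% lower. Hspa5 (BiP), the HSP70 of the ER, was at 692, 662 and 682 CPM in 4OHT, against 669.8, 663 and 644 CPM in EtOH and was not called (log2 fold change 0.04, SE 0.03, adjusted p = 0.32 by edgeR). Hsp90b1, the HSP90 of the ER, was lower at 1001, 974 and 1033 CPM in 4OHT, against 1080.3, 1071 and 1120.2 CPM in EtOH (log2 fold change −0.12, SE 0.03, adjusted p = 5.8e-04 by edgeR), and the J-domain gene Dnajb11 was 1.19-fold higher (edgeR adjusted p = 0.0019).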

How the data were processed

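RNA was sequenced from 3 4OHT and 3 EtOH libraries, made with a strand-marking mRNA kit per the labels. The authors deposited whole-number raw counts per gene, with a gene length. The submitters' processing notes name mm10 as the build and fastp, STAR and featureCounts as tools, with no roles. Not given in the sources used here are their versions, the annotation, the strand setting and how reads matching several genes were treated. The table has 27179 genes, 1314 of them without a symbol, which stayed in the fit under their identifiers.

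Genes were kept by filterByExpr (minimum count 10, total 15), scaled with TMM factors and tested with edgeR 4.0.16 (robust quasi-likelihood, R 4.3.3) over the whole table, with Benjamini-Hochberg adjustment and a threshold of 0.05. "Higher", "rose", "lower" and "fell" mean an adjusted p below it. SE is the absolute log2 fold change over the square root of F, CPM are counts scaled to library size with TMM factors, and CPM per kb divides them by the deposited length. Intervals are 95% intervals of the fit. The biological coefficient of variation was 3.59%. A floor of 3 counts, set for counting error only, equals between 0.469 and 0.651 CPM in 4OHT and between 0.604 and 0.738 CPM in EtOH. Genes with fewer counts show lower values. All pairs of libraries of a group differed by more than counting error.

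The chaperone genes and all lists were chosen with earlier results of these data known, so no list was tested and no p was adjusted over a list alone. Genes named by rule were 25 given by symbol and, per role, up to 4 called genes of largest change. The chaperone genes Cct4, Cct7, Dnajc5, Dnajc8, Dnajc13, Dnajc21, Hspa1l, Hspa14, Hspb2, Hspb6, Dnaja3, Dnajc9, Dnajc19 and Dnajc25, any others not called, and the genes named from the related lists were named after their values were seen. Positions and promoters are those of RefSeq on GRCm38. Shared 50-base stretches and exon overlaps were computed against GENCODE vM21: 13 of the 78 genes share over 20% of their stretches with another gene model, 6 of them called, and 30 overlap another model's exons. The test was checked on simulated data. Alternatives were other size factors, other filters, limma-voom (limma 3.58.1), DESeq2 1.42.0, a replicate block and fits without each library in turn.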

Additional observations from a re-analysis of the deposited data

How the results depend on the processing

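The count of higher chaperone genes was 9 under every alternative run except without a filter on low counts, where Dnajb13 joined and gave 10. The count of lower genes lay between 20 (DESeq2, and without EtOH replicate 3) and 25 (upper quartile factors), and between 20 and 23 when single libraries were left out. The median log2 fold change of the tested chaperone genes stayed between −0.09 and −0.04. A replicate block gave 9 higher and 22 lower genes, with 31 of 31 calls kept. Replicate numbers did not pair the libraries, since same-numbered libraries correlated at −0.00, −0.03 and −0.04 in their deviations. The calls of Dnaja2, Dnajc27 and Dnajb6 were lost under the alternatives named beside them. Upper quartile factors, which shift the median of all genes to −0.04, added Dnajc19, Hspa14 and Hspb6 to the lower genes (adjusted p of 0.039, 0.034 and 0.046). Leaving out 4OHT replicate 2 added Hspa14, and leaving out EtOH replicate 2 added Dnajc24. Uncalled genes near zero changed sign. Hspa9 had a log2 fold change of −0.00227 with DESeq2 size factors, −0.0325 with upper quartile factors and between −0.00972 and 0.0122 when single libraries were left out. That range was −0.16 to 0.0177 for Hsf1, −0.17 to 0.13 for Hspa2 and −0.0386 to 0.0368 for Dnaja3, and the cause was not tested. DESeq2 called 1822 higher and 1616 lower of all genes, against 2643 and 2546 with edgeR.

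Library depth leaves genes at a few CPM, such as Hspa1b, Hspa1l and Hspb6, with wide intervals. Levels of transcripts say nothing of protein amounts, and all results rest on 3 libraries a group at 1 time and dose.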
